A study of Mus musculus with 6 samples.

Results

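Heat shock chaperones were followed in sorted mouse adipocytes of 3 kinds. The set comprised 10 genes, chosen with earlier results of these data known: the inducible Hsp70 genes Hspa1a and Hspa1b, the constitutive Hsp70 Hspa8, the Hsp70 partners Hsph1, Dnajb1 and Bag3, the small heat shock protein Hspb1, the cytosolic Hsp90 gene Hsp90aa1, and the mitochondrial chaperonin genes Hspd1 and Hspe1. Every probe set that the platform annotation assigns to exactly 1 of these symbols was taken, which gave 20 probe sets of 43057 on the array, or 10 genes of 17720 with a named probe set. Of the 10 genes, 6 had several probe sets. Expression was read on 6 oligonucleotide arrays, 2 for each kind of adipocyte. The first group held adipocytes descended from bone marrow progenitors and recovered from gonadal fat, with replicate 1 sorted for green fluorescent protein (GFP) and replicate 2 for beta-galactosidase (LacZ, made visible with the fluorogenic substrate FDG). The second group held white adipocytes from gonadal fat and the third held brown adipocytes from intrascapular fat. All values are log2 expression values, on which a difference of 1 is a doubling.

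Several features of these groups limit them as models. In the bone marrow-derived group the marker differed between replicates, so marker and replicate cannot be told apart. The labels name neither strain, sex, age, diet nor the promoter that drives either marker, and give no treatment other than tissue digestion and cell sorting. Floating cells of collagenase-digested tissue were sorted, RNA of several sorts was pooled for each sample, and it was amplified before labelling, per the labels' protocols. The replicates are labelled as biological, but no label ties them to separate animals. The p-values therefore measure only how these samples scatter, which may be technical. Each of these samples is RNA of many cells, and fewer cells of a type cannot be told apart from less RNA per cell.

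Heat shock proteins keep other proteins folded. Hsp70 binds exposed hydrophobic stretches of a client under ATP control, J-domain proteins such as Dnajb1 deliver clients and trigger ATP hydrolysis, and exchange factors such as Hsph1 and Bag3 reset the cycle. Many of these genes are switched on by heat shock factor HSF1, which binds inverted repeats of the pentamer nGAAn in promoters and responds to heat, oxidants and misfolded protein. Hspa8 and the mitochondrial pair Hspd1 and Hspe1 are expressed in nearly all cells without stress, and the mitochondrial pair is abundant in tissues rich in mitochondria, such as brown fat.

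The labelled cell types were checked against their markers. Adipoq, the adipocyte hormone adiponectin, was high on all 6 arrays, at 12.70 and 11.86 in the bone marrow-derived, 13.22 and 13.24 in the white and 13.01 and 13.15 in the brown samples. Ucp1, which uncouples respiration in brown fat, read 13.58 and 13.53 in the brown samples and at 4.84 to 7.68 in the others. The leukocyte gene Ptprc (1422124_a_at) was not absent: it read 10.87 in the GFP sample and 10.89 in white replicate 1, against 7.32 to 8.80 in the other 4. Endothelial markers also differed between groups, and their values are given beside the Hsp70 results.

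The 10 genes did not move as a block. Against white adipocytes, 6 of the 20 probe sets were higher in bone marrow-derived adipocytes (those of Hspa1a, Hspa1b and Hspb1), where 11.5% of all probe sets were called higher. Another 3 were lower (Hspd1, 1 of 2 for Hspe1 and 1 of 2 for Hsph1), where 10.8% of all were called lower. A probe set was called when its limma p, adjusted by the Benjamini-Hochberg method over all 43057, was under 0.05. Against brown adipocytes 3 of the 20 were lower (Hspd1 and both of Hspe1), with 9.46% of all probe sets called lower. No member probe set was called higher than in brown, where 7.49% of all were called, and limma gave 0 of the 20 higher at an unadjusted p under 0.05 as well. Between white and brown adipocytes 4 were lower in white, all of Hspa1a and Hspa1b, beside 4.58% of all probe sets. Limma called 0 of the 20 higher in white than in brown, beside 2.79% of all, and 0 at an unadjusted p under 0.05. The median log2 difference over the 20 was -0.13 for bone marrow-derived minus white (-0.04 over all probe sets), -0.49 for bone marrow-derived minus brown (0.02 over all) and -0.23 for white minus brown (-0.01 over all). These 3 comparisons share arrays, so they are not independent of each other. All but 1 of the member calls were lost on leaving out at least 1 array, as given with each gene. Such a fit has 1 array in the group concerned, and its spread comes only from the pairs of the other groups.

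**Figure D1:**
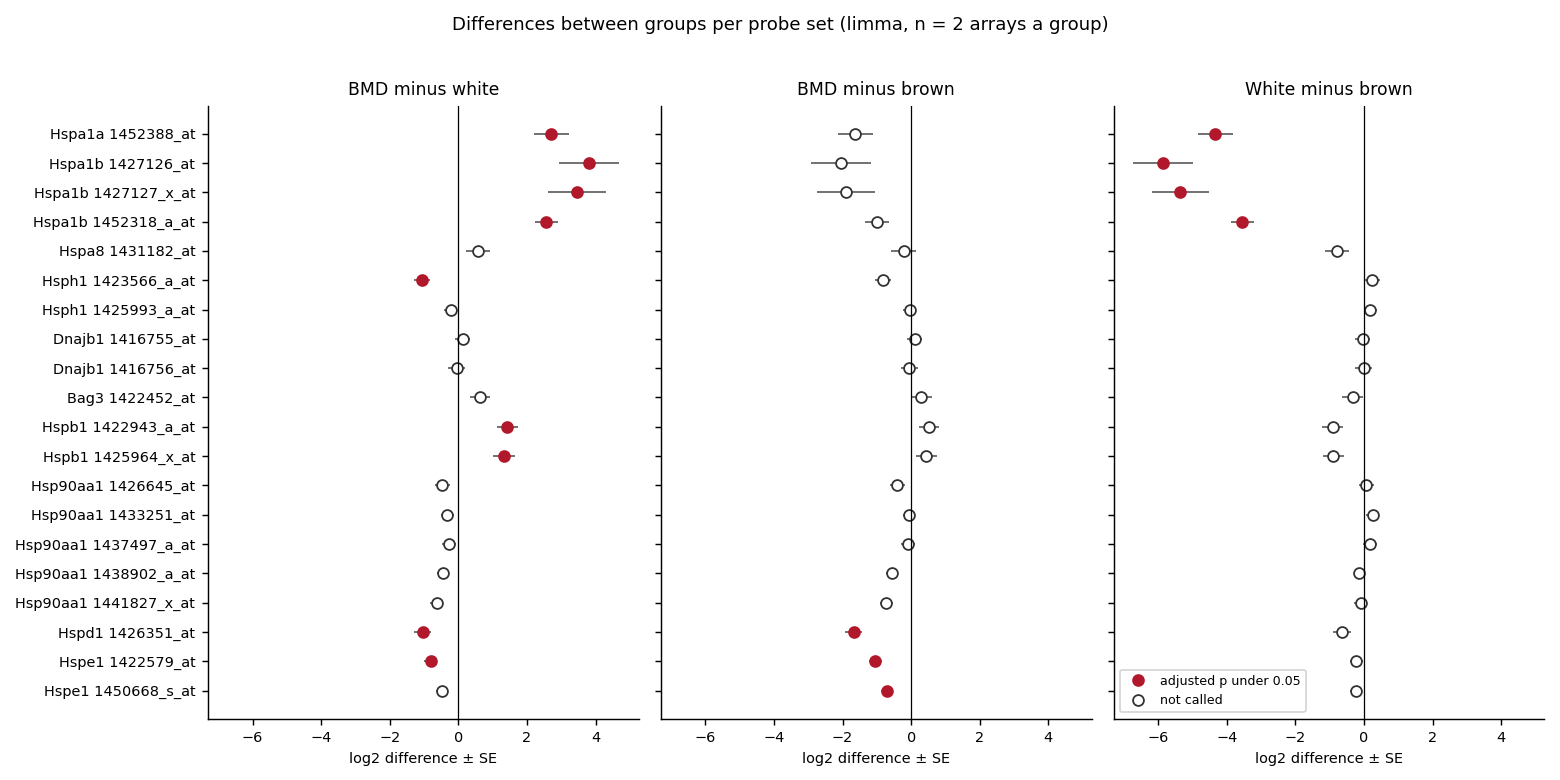
Log2 difference ± SE between groups (x axis) for each of the 20 probe sets of the 10 chaperone genes (y axis), in 3 panels for bone marrow-derived (BMD) minus white, BMD minus brown and white minus brown, with n = 2 arrays a group. Filled points passed an adjusted p of 0.05 in limma: the 4 Hspa1a and Hspa1b points lie at 2.56 to 3.81 in the first panel and at -5.85 to -3.55 in the last, and the Hspd1 and Hspe1 points lie below 0 in the first 2 panels.

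The inducible Hsp70 genes showed the widest differences of the set, and they put the 3 kinds of adipocyte in the same order on every probe set: white lowest, bone marrow-derived between, brown highest. Hspa1a and Hspa1b encode nearly the same protein and are barely expressed in most resting cells. The probe set of Hspa1a (1452388_at) read 7.51 in the GFP and 8.80 in the LacZ sample, 5.77 and 5.13 in the white and 10.16 and 9.42 in the brown samples. None of these groups overlapped. Bone marrow-derived adipocytes were 6.53-fold above white (log2 difference 2.71 ± 0.51 SE, n = 2 a group, limma adjusted p = 0.0177), and white adipocytes were 20.3-fold below brown (-4.34 ± 0.51, adjusted p = 0.013). The step from bone marrow-derived to brown was -1.63 ± 0.51 and did not pass the test (adjusted p = 0.0833).

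Hspa1b was measured by 3 probe sets. On 1427126_at it read 7.15 in the GFP and 9.84 in the LacZ sample, 5.05 and 4.33 in the white and 10.97 and 10.11 in the brown samples. That is 14-fold above white in bone marrow-derived adipocytes (3.81 ± 0.88, limma adjusted p = 0.0324) and 57.6-fold lower in white than in brown (-5.85 ± 0.88, adjusted p = 0.0219). On 1427127_x_at the values were 7.36 and 9.95, 5.38 and 5.02, and 11.04 and 10.07 in the same order of samples. This probe set, whose suffix marks probes that can also bind other transcripts, differed by 3.45 ± 0.84 between bone marrow-derived and white (adjusted p = 0.0379) and by -5.35 ± 0.84 between white and brown (adjusted p = 0.0248). On 1452318_a_at the values were higher in every sample, at 11.15 and 12.03, 9.27 and 8.80, and 12.67 and 12.50. The differences were 2.56 ± 0.34 (5.88-fold, adjusted p = 0.00747) and -3.55 ± 0.34 (11.7-fold, adjusted p = 0.00953). Bone marrow-derived samples were lower by 4.12-fold, 3.73-fold and 2-fold on the 3 probe sets and did not pass, with adjusted p from 0.107 to 0.186. Because Hspa1a and Hspa1b are near-identical copies, signal may be shared between their probe sets, and the split between the genes is uncertain.

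**Figure D2:**
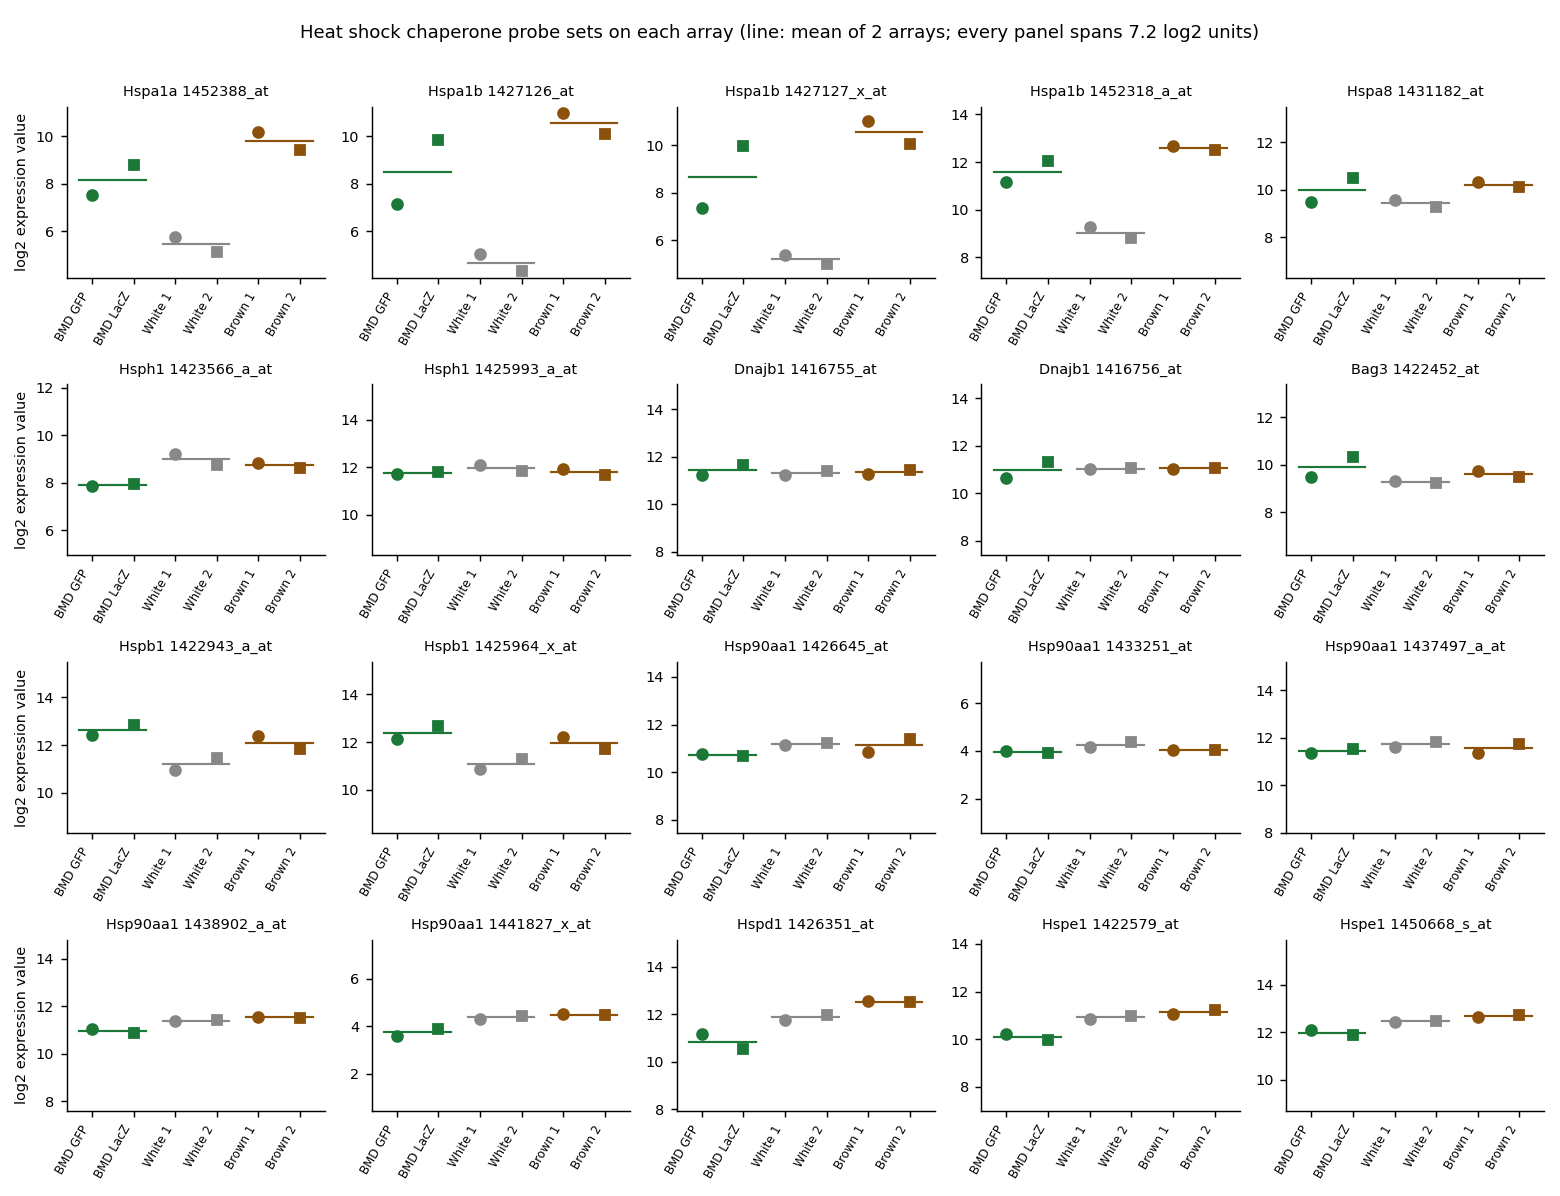
Log2 expression (y axis) of each probe set of the 10 chaperone genes on each of the 6 arrays, with bone marrow-derived (BMD), white and brown samples along the x axis and 1 point per array. On the Hspa1a and Hspa1b probe sets every white sample lies below every bone marrow-derived sample and every brown sample lies above them, while the Dnajb1 points of the groups overlap.

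The bone marrow-derived pair was far apart on these probe sets. The LacZ sample exceeded the GFP sample by 2.68 on 1427126_at, a gap reached by 1.25% of all probe sets, by 2.59 on 1427127_x_at (1.39%), by 1.28 on 1452388_at (7.41%) and by 0.89 on 1452318_a_at (14.5%). The place of bone marrow-derived adipocytes next to brown therefore rested on which sample was kept. Without the LacZ sample the differences from brown were -3.39 on 1427126_at, -3.19 on 1427127_x_at, -1.44 on 1452318_a_at and -2.27 on 1452388_at. Without the GFP sample the same differences were -0.70, -0.60, -0.55 and -0.99. Either fit left 1 bone marrow-derived array, so its spread came only from the white and brown pairs. The higher level than in white kept its sign whichever sample was left out. Its smallest value was 2.07 for Hspa1a, without the LacZ sample.

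The calls on Hspa1a and Hspa1b differed in how well they held. Hspa1b 1452318_a_at was called above white whichever of the 6 arrays was left out (limma adjusted p from 0.00423 to 0.0477). Hspa1a lost that call only without white replicate 2 (2.39, adjusted p = 0.0972). On 1427126_at and 1427127_x_at it was lost without either white or either brown sample, with differences of 3.45 to 4.16 and 3.27 to 3.63 and adjusted p from 0.0783 to 0.161. For white against brown, leaving out either brown sample ended all 4 calls, with differences of -6.28 to -3.47 and adjusted p from 0.0893 to 0.201. Limma then called 0 probe sets of the whole array in that comparison, with 2467 higher and 3680 lower at an unadjusted p under 0.05 without brown replicate 1 and 3132 and 4262 without brown replicate 2. Leaving out white replicate 1 ended the calls of 1427126_at (-6.21, 0.0761) and 1427127_x_at (-5.53, 0.0921), and leaving out white replicate 2 ended those and that of Hspa1a (-4.02, 0.0621).

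The promoters of the pair were compared because the genes moved together. Promoter windows came from RefSeq (GRCm38.p6), which held 8 of the 10 genes in 11 windows and none for Hspa8 or Hsp90aa1. The 150 bases before each start site are shown 5′ to 3′ on the gene's strand, with capitals marking matches to the paired heat shock pentamer, searched on both strands as GAANNTTC or TTCNNGAA. Hspa1a lies on the minus strand, with this stretch at chr17:34972157-34972306, and Hspa1b on the minus strand at chr17:34959239-34959388.
Hspa1a: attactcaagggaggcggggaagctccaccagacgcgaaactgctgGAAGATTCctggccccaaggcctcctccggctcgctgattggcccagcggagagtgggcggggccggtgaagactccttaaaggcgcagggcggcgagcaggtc
Hspa1b: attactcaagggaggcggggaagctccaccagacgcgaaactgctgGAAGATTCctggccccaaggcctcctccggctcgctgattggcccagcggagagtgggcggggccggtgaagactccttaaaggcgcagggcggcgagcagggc
The stretches were identical at 149 of 150 bases (99.3%), and the full 250 bases upstream at 247 (98.8%). Each held the match GAAGATTC, whose first base lies 104 bases upstream of the start site. Either form of the motif occurred in 12.8% of all 32851 windows searched the same way, so a match is a description of the letters and not a measured binding site.

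Markers of endothelial cells, which line blood vessels, moved with Hspa1a and Hspa1b. The mean of the 4 probe sets of the pair was 8.29 in the GFP, 10.15 in the LacZ, 6.37 and 5.82 in the white and 11.21 and 10.52 in the brown samples. The mean of 10 endothelial markers over the same samples was 11.51, 12.10, 8.57, 7.49, 11.07 and 10.60. It was thus lowest in white too, and higher in LacZ than in GFP, but unlike Hsp70 it was higher in both bone marrow-derived samples than in both brown samples. All 17 probe sets of the 10 endothelial genes were called higher in marrow-derived samples than in white, and 14 of 17 were called lower in white than in brown. Over all probe sets these shares were 11.5% and 4.58%. Pecam1, an adhesion protein of the endothelium, read 10.98, 11.91, 7.80, 6.66, 10.55 and 10.02. The part of endothelial RNA in the Hsp70 differences was not tested.

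Markers of blood and vessel wall cells included Alas2 and Rgs5, which were likewise lowest in white. Unlike Hsp70, neither had both brown samples above both bone marrow-derived samples. Of the erythroid list 2 of 4 genes were measured. Alas2, the heme synthesis enzyme of red cell precursors, read 7.37 and 8.43 in bone marrow-derived, 5.93 and 4.90 in white and 8.03 and 7.80 in brown samples, and was called above white (2.48, limma adjusted p = 0.0186) and lower in white than in brown (-2.50, adjusted p = 0.0382). Hba-a1, a globin gene, lay between 2.89 and 3.19 on every array. The pericyte gene Rgs5 (1417466_at) read 12.77, 12.79, 11.20, 10.24, 12.72 and 12.47 in the order used above, and was also called in both comparisons (2.06, adjusted p = 0.0122, and -1.88, adjusted p = 0.0333). Of the 11 probe sets of smooth muscle and pericyte markers, 6 were called above and 1 below white (11.5% and 10.8% of all). In these markers 3 probe sets were called above brown (7.49% of all), and 2 were lower and 1 higher in white than in brown (4.58% and 2.79%). The list mean was 9.47 and 10.07 in bone marrow-derived, 8.10 and 8.19 in white and 7.86 and 7.67 in brown samples. Unlike Rgs5, it was thus lowest in brown. The part of these cells in the Hsp70 differences was not tested.

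Macrophage markers ran differently. The mean of 11 macrophage markers was 11.32 in GFP and 8.78 in LacZ, 11.36 and 9.90 in white and 8.82 and 8.22 in brown, with the GFP sample above the LacZ sample. Limma called 0 of the 17 macrophage probe sets in any comparison, and at an unadjusted p under 0.05 none differed from white, 1 was higher in bone marrow-derived than brown and 8 were higher in white than brown. Immediate early genes such as Fos and Egr1 are induced within minutes of stress or tissue handling. Their mean over 18 genes was 11.59, 11.98, 11.32, 10.95, 11.51 and 11.24 in the order used above. Of 28 probe sets for them, 3 were called higher and 1 lower in bone marrow-derived than white, 5 higher than brown, and limma called 0 between white and brown (4 higher and 2 lower at an unadjusted p under 0.05). Over all probe sets 11.5% were called higher and 10.8% lower than white, and 7.49% higher than brown. The 3 higher than white were thus near the share of all. The largest called difference of these genes was that of Egr3 (1436329_at), 6.86-fold higher in bone marrow-derived than white (2.78 ± 0.62, limma adjusted p = 0.0287). Its other probe set, 1421486_at, went the other way and did not pass (-0.56 ± 0.21, adjusted p = 0.121). The part of immediate early genes in the Hsp70 differences was not tested.

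**Figure D3:**
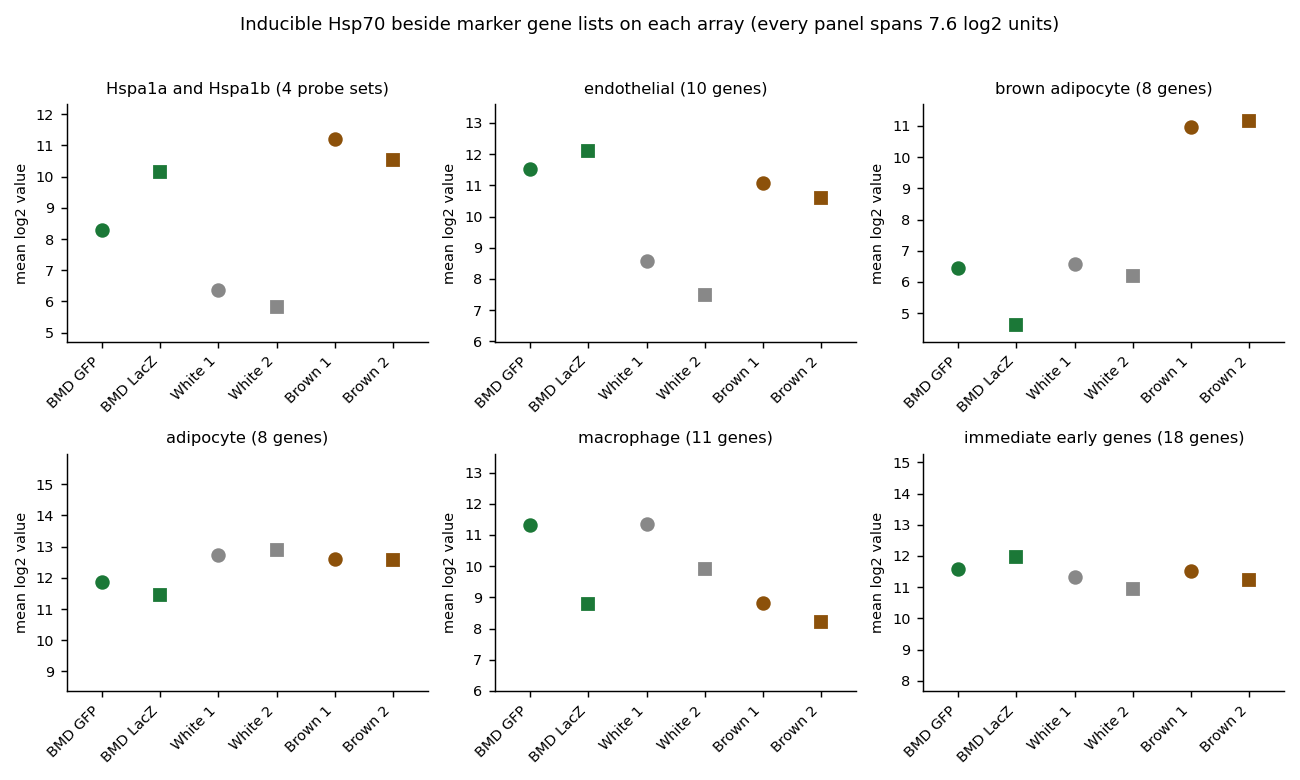
Mean log2 level (y axis) on each of the 6 arrays (x axis) of the 4 Hspa1a and Hspa1b probe sets, beside the mean of each marker list. The Hsp70 mean runs from 5.82 in white replicate 2 to 11.21 in brown replicate 1, and the endothelial mean is likewise lowest in the white samples.

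The probe sets whose profile was most like the Hsp70 mean over the 6 arrays were those of Rab3ip (Pearson r = 0.9972), Rnf152 (0.9957), Pnkd (0.9957), Aph1a (0.9919) and Arfrp1 (0.9918), taken from 17401 probe sets with a range of at least 1. The chaperone genes of the set were left out of this search. None of the wider heat shock network genes listed below was among them. With 6 arrays in 3 groups and this many candidates, the values describe these samples only. Rnf152 (1439887_at), for example, read 7.80 and 8.74 in the bone marrow-derived, 6.19 and 6.04 in the white and 9.33 and 9.03 in the brown samples.

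Hspa8, the constitutive Hsp70, did not follow the inducible pair to the same extent. Its probe set (1431182_at) read 9.47 in GFP and 10.51 in LacZ, 9.57 and 9.28 in white and 10.32 and 10.10 in brown. White lay below brown without overlap, by 0.79 on the log2 scale, but this did not pass the test (-0.79 ± 0.36, limma adjusted p = 0.267). Bone marrow-derived adipocytes overlapped with both other groups, at 0.57 ± 0.36 against white (adjusted p = 0.339) and -0.22 ± 0.36 against brown (adjusted p = 0.71). The GFP sample lay in the white range and the LacZ sample above the brown samples. Without the GFP sample the difference from white was 1.09, and without the LacZ sample it was 0.05.

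Among the Hsp70 partners, Hsph1, Dnajb1 and Bag3, only a probe set of Hsph1 was called. Hsph1, an Hsp110 protein that exchanges nucleotide on Hsp70, read 7.87 and 7.96 in bone marrow-derived, 9.22 and 8.73 in white and 8.84 and 8.63 in brown adipocytes on 1423566_a_at. The bone marrow-derived samples lay below all others, 2.09-fold below white (-1.06 ± 0.23, limma adjusted p = 0.0252), while the difference from brown did not pass (-0.82 ± 0.23, adjusted p = 0.0617). The call against white held without the LacZ sample or without white replicate 2. It was lost without the GFP sample (adjusted p = 0.0608), white replicate 1 (0.0969) or either brown sample (0.0625). The other probe set of Hsph1 (1425993_a_at) stayed between 11.67 and 12.10 on every array and differed from white by -0.22 ± 0.19 (adjusted p = 0.489). The probe sets of this gene therefore disagree on a change.

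Dnajb1, the J-domain partner that starts the Hsp70 cycle and is itself a strong target of HSF1, gave no difference that passed the test. On 1416755_at it read 11.25 and 11.67 in bone marrow-derived, 11.23 and 11.42 in white and 11.27 and 11.46 in brown adipocytes. The 3 groups overlapped. The differences were 0.13 ± 0.22, 0.10 ± 0.22 and -0.04 ± 0.22 in the order of the comparisons above (limma adjusted p from 0.722 to 0.945). On 1416756_at the GFP sample was lowest at 10.66, the LacZ sample highest at 11.31, and the other 4 lay between 11.00 and 11.06. Neither RefSeq window of Dnajb1 held the heat shock motif in its 250 upstream bases, and neither did the window of Bag3.

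Bag3 brings Hsp70 clients to autophagy and works with small heat shock proteins. Its probe set (1422452_at) read 9.50 in GFP, 10.32 in LacZ, 9.31 and 9.25 in white and 9.72 and 9.50 in brown adipocytes. Both bone marrow-derived samples lay above both white samples, but the difference did not pass the test (0.63 ± 0.30, limma adjusted p = 0.206). Without the GFP sample it was 1.04, and without the LacZ sample 0.22.

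Hspb1, a small heat shock protein that holds unfolding proteins and binds the actin skeleton, was raised in bone marrow-derived over white adipocytes. On 1422943_a_at it read 12.40 and 12.85 in bone marrow-derived, 10.94 and 11.45 in white and 12.36 and 11.84 in brown adipocytes. The bone marrow-derived samples were the highest of the 6, though GFP stood only just above brown replicate 1. They exceeded white 2.69-fold (1.43 ± 0.30, limma adjusted p = 0.0248), and brown by 0.52 ± 0.30, which did not pass (adjusted p = 0.296). On 1425964_x_at the values were 12.13 and 12.67, 10.87 and 11.28, and 12.23 and 11.69, a 2.51-fold difference from white (1.33 ± 0.31, adjusted p = 0.032). White lay below brown on both without overlap, by -0.91 ± 0.30 and -0.89 ± 0.31, and neither passed (adjusted p = 0.144 and 0.157). Mean levels on 1422943_a_at were 12.62 in bone marrow-derived, 12.10 in brown and 11.19 in white samples. Hspa1a and Hspa1b were instead highest in brown. The endothelial markers had the same order of groups as Hspb1, with means of 11.51 and 12.10 in bone marrow-derived, 11.07 and 10.60 in brown and 8.57 and 7.49 in white samples, and their part in the Hspb1 difference was not tested. The calls against white held without the GFP sample and were lost on leaving out any other array, with differences from 1.05 to 1.68 and adjusted p from 0.0505 to 0.135.

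The 150 bases before the Hspb1 start site hold the motif at 2 places, starting 117 and 97 bases upstream. They lie on the plus strand at chr5:135887769-135887918.
Hspb1: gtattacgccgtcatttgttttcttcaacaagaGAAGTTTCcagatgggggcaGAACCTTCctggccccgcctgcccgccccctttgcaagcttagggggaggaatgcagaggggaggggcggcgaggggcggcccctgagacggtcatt
Among the 8 genes with a window, 6 had a match in the 250 upstream bases of at least 1 window, and these included genes that were lower in bone marrow-derived adipocytes (Hspd1, Hspe1 and Hsph1) as well as genes that were higher.

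Hsp90aa1, the stress-inducible form of cytosolic Hsp90 that matures kinases and steroid receptors, was measured by 5 probe sets and limma called none in any comparison (2 lower than white and 2 lower than brown at an unadjusted p under 0.05). On 1426645_at it read 10.75 and 10.69 in bone marrow-derived, 11.16 and 11.22 in white and 10.86 and 11.38 in brown adipocytes. On 1438902_a_at it read 11.06 and 10.86, 11.38 and 11.41, and 11.55 and 11.51. On 1437497_a_at the values ran from 11.36 to 11.82 over the 6 arrays. The differences from white ran from -0.63 to -0.27 over the 5 probe sets, with adjusted p in limma from 0.0642 to 0.443. The lowest adjusted p in limma against brown was 0.052, on 1441827_x_at (-0.73 ± 0.19), and that difference was -0.88 without the LacZ sample. This probe set and 1433251_at lay between 3.59 and 4.49 on every array. That is near the lower quartile of all values, which was 3.41 to 3.55 per array, so they say little of the transcript.

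Hspd1 and Hspe1, the chaperonin Hsp60 and its lid Hsp10 of the mitochondrial matrix, were lowest in bone marrow-derived and highest in brown adipocytes. Hspd1 (1426351_at) read 11.15 and 10.53 in bone marrow-derived, 11.77 and 11.98 in white and 12.54 and 12.49 in brown samples, with no overlap between groups. It was 2.05-fold lower than in white (-1.04 ± 0.25, limma adjusted p = 0.0374) and 3.2-fold lower than in brown (-1.68 ± 0.25, adjusted p = 0.0131). Hspe1 (1422579_at) read 10.23 and 9.96, 10.84 and 10.97, and 11.05 and 11.21, again without overlap. It was 1.75-fold lower than in white (-0.81 ± 0.19, adjusted p = 0.0339) and 2.05-fold lower than in brown (-1.04 ± 0.19, adjusted p = 0.0217). The second probe set of Hspe1, 1450668_s_at, which the array maker marks as matching several transcripts, read 12.07 and 11.86, 12.44 and 12.46, and 12.64 and 12.72. It was lower than in brown (-0.71 ± 0.17, adjusted p = 0.0453) and missed the threshold against white (-0.48 ± 0.17, adjusted p = 0.107). White minus brown was -0.64 ± 0.25 for Hspd1 and -0.23 on both Hspe1 probe sets, and none passed (adjusted p from 0.203 to 0.538).

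The calls of the mitochondrial pair against brown were ended by leaving out either brown sample (Hspd1 -1.65 and -1.70, limma adjusted p = 0.0909 and 0.0993; Hspe1 1422579_at -1.11 and -0.96, 0.098 and 0.14). Leaving out any of the 6 arrays ended that of 1450668_s_at, with differences of -0.82 to -0.61 and adjusted p from 0.0566 to 0.211. The calls against white held without the GFP sample and were lost without any other array, with Hspd1 at -1.14 to -0.73 and Hspe1 1422579_at at -0.87 to -0.67 and adjusted p from 0.0747 to 0.172. Markers of adipocytes moved in the same direction: 5 of their 8 measured genes were called lower in bone marrow-derived than in white, and 5 lower than in brown. That was 5 and 6 of 13 probe sets, beside 10.8% and 9.46% of all. The mean of the adipocyte markers was 11.86 and 11.45 in bone marrow-derived, 12.74 and 12.88 in white and 12.60 and 12.58 in brown samples. Of 16 probe sets of brown adipocyte markers 12 were called lower than in brown, beside 9.46% of all. Of 5 probe sets of skeletal muscle markers, 2 were called lower than in white and 1, that of Myl1, lower than in brown. Over all probe sets these shares were 10.8% and 9.46%. The part of cell content in the chaperonin differences was not tested.

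Hspd1 and Hspe1 lie head to head and are transcribed from a shared promoter, so the bases between them are printed for both. In the Hspe1 window 3 overlapping matches start 89, 84 and 79 bases upstream of its start site, at chr1:55088053-55088082 on the plus strand.
Hspe1: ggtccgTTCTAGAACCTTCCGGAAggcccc
The same bases on the minus strand lie in the window of the Hspd1 start site at position 55087932, with matches from 144 bases upstream. A run of 3 units, GAANNTTCNNGAA or its reverse complement TTCNNGAANNTTC, occurred in 0.466% of all windows. Hspa1a, Hspa1b and Hspb1 had pairs of units only.

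The rest of the heat shock network was read from a list of 65 genes, of which 58 were measured by 133 probe sets. Against white, 10 probe sets (7.52%) were called higher in the marrow-derived cells and 38 (28.6%) lower, from 8 and 23 genes, with a median of -0.33. Over all probe sets 11.5% were called higher and 10.8% lower. Against brown, 2 (1.5%) were higher and 30 (22.6%) lower, from 2 and 18 genes, with a median of -0.19. Over all probe sets these shares were 7.49% and 9.46%. Between white and brown 4 (3.01%) were higher and 4 (3.01%) lower in white, with a median of 0.06. This was near the shares over all probe sets, 2.79% and 4.58%. Mitochondrial chaperones gave 12 of the 38 and 16 of the 30 lower calls. Leaving out a single array moved several of these counts by over 1.5 times. The 38 became 23 without white replicate 1, 9 without white replicate 2 and 24 without either brown sample, and the 10 became 4, 2 and 2. The 30 became 3 without brown replicate 1 and 1 without brown replicate 2. The 2 higher than brown became 6 without the GFP sample and 4 without the LacZ sample. Without brown replicate 1 or 2 limma called 0, with 4 and 3 higher at an unadjusted p under 0.05. The 4 higher and 4 lower in white than in brown became 9 and 8 without either bone marrow-derived sample, and 3 and 1 without either white sample. Limma called 0 in both directions without either brown sample, where 9 higher and 12 lower (without replicate 1) and 12 and 13 (without replicate 2) had an unadjusted p under 0.05. The 7 listed genes without a probe set of their own, among them Hsf1 and Hsp90ab1, were not analysed here.

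**Figure D4:**
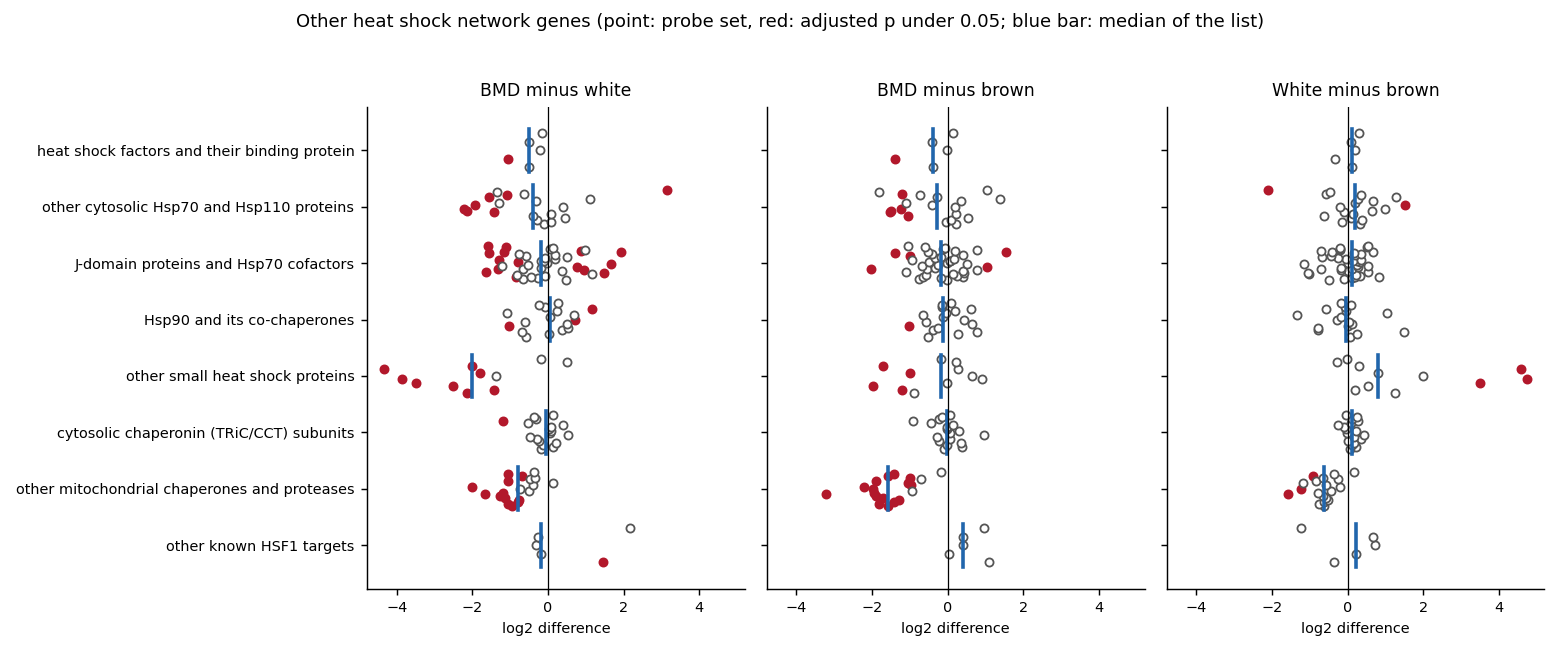
Log2 differences (1 point per probe set) of the wider heat shock network, by list, for the 3 comparisons between bone marrow-derived (BMD), white and brown adipocytes. Mitochondrial chaperones lie mostly below 0 in both bone marrow-derived comparisons, with medians of -0.80 and -1.58, and the small heat shock proteins other than Hspb1 have a median of -2.00 against white.

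Other mitochondrial chaperones and proteases followed Hspd1 and Hspe1. Of 19 probe sets of 9 genes, 12 (7 genes) were called lower in bone marrow-derived than in white and 16 (8 genes) lower than in brown, with medians of -0.80 and -1.58, and 3 (2 genes) lower in white than in brown. Over all probe sets 10.8%, 9.46% and 4.58% were called lower in these comparisons. Dnaja3, the mitochondrial J-domain partner (1420629_a_at), read 6.11 and 6.54 in bone marrow-derived, 7.88 and 8.10 in white and 9.46 and 9.66 in brown samples. It was 9.41-fold lower than in brown (-3.23 ± 0.22, limma adjusted p = 0.00226). On its stronger probe set, 1449935_a_at, Dnaja3 was 3.02-fold lower than in brown (-1.59 ± 0.18, adjusted p = 0.00687). On 1432066_at, which read 2.71 to 4.01, it was 1.98-fold lower (adjusted p = 0.0421). The matrix protease Lonp1 was 3.93-fold lower than in brown (-1.98 ± 0.22, adjusted p = 0.00655). Hspa9, the mitochondrial Hsp70, was 4.67-fold lower than in brown on 1431274_a_at (-2.22 ± 0.49, adjusted p = 0.0355), which read 4.58 and 4.64 against 6.05 and 7.61. On its stronger probe sets it was 3.73-fold (1418504_at, adjusted p = 0.00418) and 3.26-fold lower (1418503_at, adjusted p = 0.0062). On 1447728_x_at it was 2.01-fold lower (adjusted p = 0.0246), and on 1453811_at it was not called (-0.18 ± 0.17, adjusted p = 0.499).

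The other small heat shock proteins ran against Hspb1. Of 11 probe sets of 6 genes, 8 (4 genes) were called lower in marrow-derived samples than in white and none higher (1 at an unadjusted p under 0.05 in limma), with a median of -2.00. Over all probe sets 10.8% were called lower and 11.5% higher. Hspb7, known from heart and muscle, read 3.03 and 3.69 in bone marrow-derived, 6.83 and 8.55 in white and 3.29 and 2.91 in brown samples on 1434927_at. Bone marrow-derived adipocytes were 20.2-fold below white (-4.33 ± 0.58, limma adjusted p = 0.00745). On 1421290_at white exceeded brown 27-fold (4.75 ± 0.51, adjusted p = 0.0113), with brown at 3.24 and 2.60. The low values of Hspb7 on these probe sets lay near or below the lower quartile of all values, 3.41 to 3.55 per array. The size of these folds is therefore uncertain. Hspb8, the partner of Bag3, was 5.68-fold lower than in white on 1417014_at (-2.51 ± 0.33, adjusted p = 0.00737). On its strongest probe set, 1417013_at, Hspb8 was 2.7-fold lower (-1.43 ± 0.29, adjusted p = 0.0228). On 1456434_x_at it was not called (-0.18 ± 0.25, adjusted p = 0.67). Cryab, alpha B-crystallin, was 4.43-fold lower than in white on 1416455_a_at (-2.15 ± 0.26, adjusted p = 0.00622) and 3.46-fold lower on 1434369_a_at (adjusted p = 0.00438). White adipocytes thus had the lowest Hspb1 and the highest Hspb7 and Cryab of the 3 groups. Markers of skeletal muscle, where several of these proteins are abundant, fell with them in part: 2 of the 4 measured genes (2 of 5 probe sets) were called lower than in white. Acta1, muscle actin, read 5.78 and 6.39 in bone marrow-derived, 8.96 or more in white and 9.44 and 6.91 in brown samples (-3.39 ± 0.85 against white, adjusted p = 0.0403). Myl1, a myosin light chain, read 9.04 and 8.34, 10.80 and 11.35, and 11.47 and 11.67 (-2.39 ± 0.31, adjusted p = 0.00726). The mean of the list was 5.66 and 5.62 in bone marrow-derived, 7.15 and 7.50 in white and 8.74 and 6.79 in brown samples. The part of muscle RNA in these differences was not tested.

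Among other cytosolic Hsp70 and Hsp110 genes, 1 probe set was higher and 6 lower in bone marrow-derived than in white, of 19, beside 11.5% and 10.8% of all probe sets. The higher was Hspa12b (1460371_at), known from endothelium, which read 11.58 and 11.91 in bone marrow-derived, 8.31 and 8.90 in white and 10.82 and 10.59 in brown samples (3.15 ± 0.27 against white, limma adjusted p = 0.00343). Its relative Hspa12a was 4.64-fold lower than in white on 1434051_s_at (-2.21 ± 0.22, adjusted p = 0.00405). Of 39 probe sets of J-domain proteins and Hsp70 cofactors, 6 were higher and 9 lower than in white, with Dnajb5 3.83-fold higher (1450436_s_at, 1.94 ± 0.28, adjusted p = 0.0094) and Bag4 3.09-fold lower (1418707_at, -1.63 ± 0.29, adjusted p = 0.0149). Against brown, 2 of these 39 were higher and 3 lower, beside 7.49% and 9.46% of all probe sets. The higher were 1 probe set each of Dnajb5 (1.53 ± 0.28, adjusted p = 0.0224) and Dnajb6 (1.03 ± 0.19, adjusted p = 0.0212). Bag2 was 4.08-fold lower than in brown (-2.03 ± 0.20, adjusted p = 0.00456). It read 3.56 and 3.81 in bone marrow-derived samples, near the lower quartile of all values.

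Few genes of the remaining lists were called, beside 11.5% higher and 10.8% lower than in white over all probe sets. Of 17 probe sets of Hsp90 co-chaperones, 2 were higher and 1, of the kinase adaptor Cdc37 (1416819_at), lower than in white (-1.03 ± 0.24, limma adjusted p = 0.0333). The other Cdc37 probe set, 1416820_at, went the other way and did not pass (0.51 ± 0.41, adjusted p = 0.446). Of 18 probe sets of the cytosolic chaperonin, which folds actin and tubulin, 1 of Cct3 was lower than in white (-1.20 ± 0.32, adjusted p = 0.0462) and none was called against brown (2 lower at an unadjusted p under 0.05). The heat shock factor Hsf4 was lower than in white (-1.07 ± 0.26, adjusted p = 0.0355) and brown (-1.40 ± 0.26, adjusted p = 0.0215), and Ier5, a target of HSF1, higher than in white on 1417612_at (1.46 ± 0.38, adjusted p = 0.0453). Endoplasmic reticulum chaperones belong to another stress pathway, the unfolded protein response. Limma called 0 of their 22 probe sets between bone marrow-derived and white (0 higher and 3 lower at an unadjusted p under 0.05). Brown adipocytes had lower values than bone marrow-derived for 3 of them: Sdf2l1 (4.43-fold, 2.15 ± 0.37, adjusted p = 0.0185), Hsp90b1 (0.84 ± 0.17) and Dnajb11 (0.77 ± 0.17). Over all probe sets 7.49% were called this way.

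The spread within groups was not even over the members. In the bone marrow-derived pair the median absolute gap over the 20 probe sets was 0.44 (0.30 over all probe sets), and the LacZ sample was higher on 14 of 20 (57.6% of all probe sets). In the white pair the median gap was 0.23 (0.23 over all) and in the brown pair 0.21 (0.22 over all). Beside Hspa1a and Hspa1b, Hspa8 and Bag3 had gaps of 1.04 and 0.83 between the LacZ and GFP samples. The LacZ sample was lower on the probe sets of Hspd1 and Hspe1.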

How the data were processed

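The authors deposited a log2 value for every probe set and array. Per the submitters' processing notes RMA and Partek were used, without a stated version or role. RMA subtracts background, equalises array distributions and summarises probes on the log2 scale. The log base was read from the deposited values, whose range is 1.67 to 14 and whose medians per array are 5.46 to 5.72. There are no detection calls, and 2 arrays a group limit the precision.

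Of 43057 probe sets, 33565 had 1 platform symbol, 857 several and 8635 none; those with several named no gene. Group means of all 6 arrays were fitted per probe set with limma 3.58.1 (R 4.3.3), with contrasts and empirical Bayes moderation (3 residual degrees of freedom, 2.65 prior). All tests were two-sided, adjusted by Benjamini-Hochberg over all probe sets, and checked on simulated data. A value after ± beside a difference is the SE.

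The members and lists were chosen with earlier results of these data known. All members were named, and of each other list up to 3 called genes, or the gene with the largest difference. Genes named outside this rule, and single probe sets, were chosen after their values were seen. Lists of erythroid, T and B cell, fibroblast, smooth muscle, skeletal muscle and mesothelial markers were read too. Their means over arrays ran from 4.00 to 5.81, 4.18 to 5.07, 4.24 to 6.17, 7.53 to 10.51, 7.67 to 10.07, 5.62 to 8.74 and 3.93 to 7.94. Brown adipocyte markers averaged 10.97 and 11.15 in brown samples and 4.63 to 6.57 in the others. The alternatives were 1 probe set per gene, no moderation, an intensity trend, median centring, a level filter, the compared groups alone, a replicate block and leaving out each array.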

Additional observations from a re-analysis of the deposited data

How the results depend on the processing

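Of the member calls, none reversed under any alternative. The 6 probe sets higher in bone marrow-derived than white became 3 with 1 probe set per gene (fewer probe sets tested), 0 without moderation, 2 with only these groups fitted, and 1 to 8 with an array left out. The 3 lower became 1, 0, 0 and 0 to 2 under the same settings, and 5 with an intensity trend. The 3 lower than brown became 0 without moderation, 6 after median centring and 0 to 7 with an array left out. The 4 lower in white than brown became 2 with 1 probe set per gene, 0 without moderation and 0 to 4 with an array left out. No alternative called a member higher than in brown. Beyond the smaller designs, the cause was not tested.

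Centring moved the median of all probe sets to -0.21 against white and -0.18 against brown, and the share of calls that were higher from 51.6% to 41% and from 44.2% to 29.4%.

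Differences that reversed were all uncalled. Centring turned Dnajb1 1416755_at to -0.04 against white and -0.10 against brown. With an array left out, it ran from -0.08 to 0.34 against white, -0.11 to 0.31 against brown and -0.13 to 0.06 for white minus brown, and 1416756_at from -0.37 to 0.28, -0.39 to 0.27 and -0.04 to 0.02. Against brown Bag3 ran from -0.11 to 0.71, Hspa8 from -0.74 to 0.30, Hsph1 1425993_a_at from -0.15 to 0.08 and Hsp90aa1 1437497_a_at from -0.29 to 0.10. For white minus brown Hsp90aa1 1426645_at ran from -0.19 to 0.33 and 1437497_a_at from -0.02 to 0.37.

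The labels do not pair samples by replicate number. Deviations of same-numbered samples correlated at 0.151, 0.021 and 0.213. With the number as a replicate block, the 6 became 3, the 3 lower than white 1, the 3 lower than brown 2 and the 4 stayed 4.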
